A study of Homo sapiens with 27 samples.

Results

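The miR-125 and miR-99/100 families are microRNAs (miRNAs), short RNAs that pair with messenger RNAs and lower the output of their targets. The members were taken by name: every mature probe of miR-125a, miR-125b, miR-99a, miR-99b and miR-100, star strands included. This gave 10 of the 774 human miRNA probes on the array, of which 637 were for mature miRNAs. No precursor probe of these genes was among the 774.

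The cells were OCI-AML3, a human acute myeloid leukaemia line, and total RNA was hybridised to 27 arrays in 9 groups of 3. The first 4 groups received 250 nM POL6326, an antagonist of the chemokine receptor CXCR4, for 1, 2, 4 or 8 h. Another 4 groups received SDF-1α at 100 ng/mL, the natural ligand of CXCR4, for the same times. The control group was untreated and taken at 0 h alone, so against control the treatment and the time in culture cannot be told apart. POL6326 and SDF-1α were therefore compared at matched times. All groups are the same cell line, and it is not stated if replicate arrays are separate cultures, so p-values measure the spread between these arrays, which may be technical. RNA of a whole culture cannot tell less RNA per cell apart from fewer cells that hold it.

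A miRNA is cut from a hairpin, and each arm of the hairpin can give a mature strand. In the older naming used on this array, a star marks the arm that is usually the scarcer one. miR-125 is the vertebrate counterpart of lin-4 of Caenorhabditis elegans, and miR-125b is known to drive leukaemia in mice when it is made in excess in blood stem and progenitor cells. miR-99a, miR-99b and miR-100 are known for lowering the growth-signalling kinase mTOR. In the human genome the families lie together in clusters, each with a miR-99/100 gene, a let-7 gene and a miR-125 gene.

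The mature sequences are shown because the members fall into groups by the seed, bases 2 to 8, which largely sets the targets and is in capitals here. All 10 members matched a RefSeq entry (GRCh38.p14), and the 10 carried 7 different seeds.
miR-125a-5p: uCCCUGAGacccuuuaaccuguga
miR-125b: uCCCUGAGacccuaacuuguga
miR-125a-3p: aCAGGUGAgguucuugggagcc
miR-125b-1*: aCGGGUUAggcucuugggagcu
miR-125b-2*: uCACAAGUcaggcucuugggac
miR-99a: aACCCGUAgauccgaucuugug
miR-100: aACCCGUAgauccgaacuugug
miR-99b: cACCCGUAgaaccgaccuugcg
miR-99b*: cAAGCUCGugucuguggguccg
miR-100*: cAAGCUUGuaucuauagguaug
The guide strands miR-125a-5p and miR-125b share the seed CCCUGAG and their first 13 bases. miR-99a, miR-99b and miR-100 share the seed ACCCGUA. miR-99a and miR-100 differ at 1 of 22 positions (U16A, with the miR-99a base given first and positions counted from the 5′ end). miR-99b differs from each of them at 4 of 22 positions. Probes for strands this alike may bind each other's target, and the 3 probes were therefore read as separate but not fully independent measurements. miR-125b-2* has a seed of its own, CACAAGU, shared with no other member.

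The RefSeq positions place the members at 3 clusters (GRCh38.p14). On the minus strand of chromosome 11, MIR125B1 (chr11:122099757-122099844), MIRLET7A2 (chr11:122146522-122146593) and MIR100 (chr11:122152229-122152308) span 52.6 kb. On the plus strand of chromosome 19, MIR99B (chr19:51692612-51692681), MIRLET7E (chr19:51692786-51692864) and MIR125A (chr19:51693254-51693339) lie within 728 bases. On the plus strand of chromosome 21, MIR99A (chr21:16539089-16539169), MIRLET7C (chr21:16539828-16539911) and the mature strands of MIR125B2 (chr21:16590253-16590311) span 51.2 kb. The mature strand miR-125b can come from MIR125B1 and from MIR125B2, whereas miR-125b-1* is specific to the chromosome 11 gene and miR-125b-2* (chr21:16590290-16590311) to the chromosome 21 gene.

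All values are deposited log2 signals. Every array has many tied values at its low end, at 4.27 to 4.43, called its floor, and a probe at or under it was not measured there. The lowest signal above the floor is called the detection limit. On the POL6326 arrays it was 5.09 to 5.33 at 1 h, 5.21 to 5.46 at 2 h, 4.27 to 4.45 at 4 h and 4.60 to 4.73 at 8 h. On the SDF-1α arrays it was 6.88 to 7.42 at 1 h, 5.12 to 5.44 at 2 h, 4.70 to 4.94 at 4 h and 4.37 to 5.22 at 8 h, and on the control arrays 4.30 to 6.45. The number of probes above the floor ran from 210 on an SDF-1α 1 h array to 593 on a POL6326 4 h array. A level below about 7 was therefore out of reach on the SDF-1α 1 h arrays but well measured on the POL6326 4 h arrays. Among markers of blood cells, miR-223, miR-155 and miR-142-5p were above the floor on all 27 arrays, miR-181a on 10 and miR-142-3p on 4. Among markers of other tissues, the liver miRNA miR-122 was above the floor on 27 arrays and miR-124 of neurons on 19. Of stromal markers, the 2 probes of miR-145 were above it on 26 and 14 arrays and miR-143 on 0. Of epithelial markers, miR-141 was above it on 21 and miR-200c on 3. Of muscle markers, miR-1 was above it on 9 and the 2 probes of miR-133a on 13 and 5. A signal above the floor here therefore does not by itself name the cell type. The part of those signals in the results below was not tested.

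The members differed widely in how often they could be measured. miR-99b was above the floor on all 27 arrays, miR-125b-2* on 22, miR-125a-5p on 21 and miR-100 on 18. miR-99a and miR-99b* were above it on 9 arrays each, miR-125a-3p on 6 and miR-125b on 4. miR-125b-1* and miR-100* were not above it on any array, so nothing but an upper limit is known of them. The results below rest on the 4 members measured on at least 18 arrays, and the signals of different probes are not set against each other, since probes differ in brightness.

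hsa-miR-125b-2*, the star strand of the chromosome 21 gene, was the member that changed most clearly. It was bright with POL6326 at 1, 2 and 8 h and dim at 4 h. The 3 POL6326 arrays read 7.99, 7.91 and 7.93 at 1 h, then 7.69, 7.71 and 7.54 at 2 h, then 4.76, 5.06 and 5.15 at 4 h, and 7.01, 7.21 and 7.27 at 8 h. With SDF-1α the 3 arrays were at the floor at 1 h, and read 5.39, 5.91 and 6.22 at 2 h, then 5.29, 6.14 and 6.65 at 4 h, and 5.01, 5.21 and 6.16 at 8 h. Of the control arrays, 1 read 4.64, just above its detection limit of 4.30, and the other two were at the floor with limits of 5.83 and 6.45. At every time the POL6326 and the SDF-1α arrays were separate, with POL6326 above at 1, 2 and 8 h and below at 4 h.

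**Figure D1:**
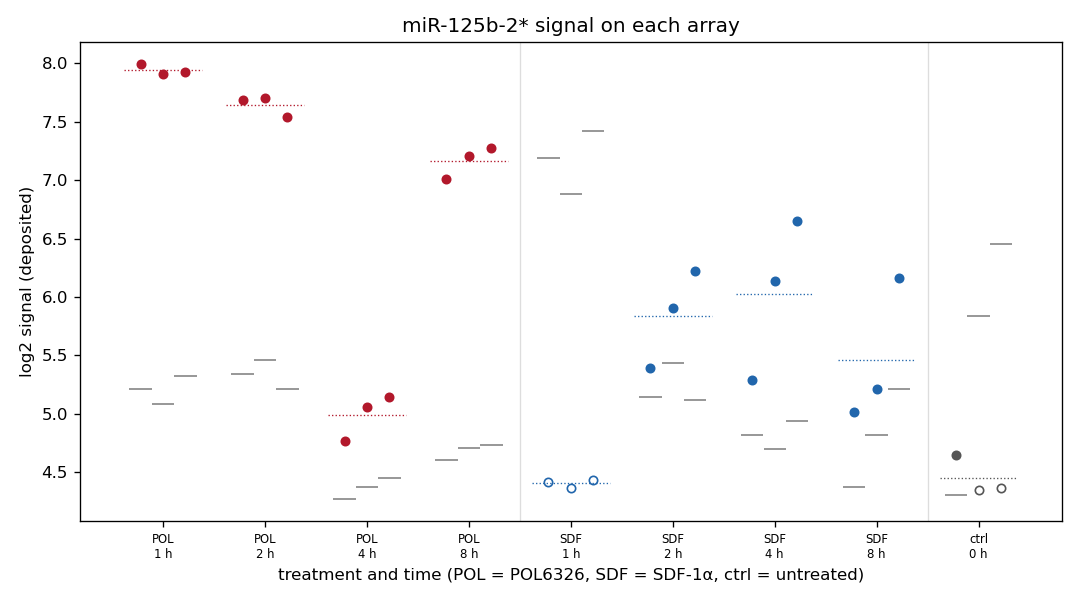
Log2 signal of miR-125b-2* on each of the 27 arrays, by group, with POL6326 at left, SDF-1α in the middle and control at right. Filled points are above the floor, open points are at it, grey ticks are each array's detection limit and dotted lines are group means. POL6326 means are 7.94, 7.65, 4.99 and 7.16 at 1, 2, 4 and 8 h, SDF-1α means 4.41, 5.84, 6.03 and 5.46, and the control mean 4.45.

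At 2 h miR-125b-2* averaged 7.65 ± 0.09 with POL6326 and 5.84 ± 0.42 with SDF-1α (SD, n = 3 each). The difference was 1.80 on the log2 scale (SE 0.28), 3.49-fold, with an adjusted p of 0.000610 (limma, Benjamini-Hochberg over 774 probes). It was the 1 member of 10 called at 2 h, where 4.13% of all probes were called. At 8 h it was 7.16 ± 0.14 with POL6326 and 5.46 ± 0.61 with SDF-1α, 3.25-fold higher with POL6326 (adjusted p = 0.00235, 1 member of 10 called against 1.03% of all probes). Fitted on the groups compared alone, the 8 h difference did not pass (adjusted p = 0.377, with a range of 0.00115 to 1.0 over the alternatives). With all values under a common detection limit of 7.42 raised to it, the 2 h difference was 0.22 (adjusted p = 0.0510), and no 8 h value was left above the limit.

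At 1 h miR-125b-2* had no measured level with SDF-1α, so its fold is a lower bound. The POL6326 mean of 7.94 ± 0.04 stood at least 1.72-fold above the mean detection limit of the SDF-1α arrays, 7.16. The call (adjusted p = 5.44e-08) held under all 8 alternatives, and 1 member of 10 was called against 3.49% of all probes. The SD of the SDF-1α arrays, 0.03, is that of their tied floors, so this p-value can be too small.

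At 4 h the direction was the opposite. miR-125b-2* was 4.99 ± 0.20 with POL6326 and 6.03 ± 0.69 with SDF-1α, and it was above the floor on all 6 arrays. The difference of -1.04 (SE 0.28) is 2.05-fold lower with POL6326, with an adjusted p of 0.0284. The SE comes from a spread shared by all 9 groups. Among these are SDF-1α 1 h and control, whose SDs of 0.03 and 0.17 come wholly or mostly from floor values. This p-value, like those of its other fits across the 9 groups, can therefore be too small. miR-125b-2* was again the 1 member of 10 called, with 9.82% of all probes called at this time, so the count of members is near the background. The POL6326 4 h arrays had 482 to 593 probes above the floor and the SDF-1α 4 h arrays 362 to 381. The call was kept under 4 of 8 alternatives, with adjusted p-values of 0.00415 to 1.0 over the 8. It was lost with that number as a covariate (-0.92, adjusted p = 0.219), with quantile normalization (-0.76, adjusted p = 0.0794) and with the groups compared fitted alone (adjusted p = 0.154). With the common limit of 7.42 no 4 h value was left above the limit. The call was also lost without SDF-1α 4 h array 2 or 3 or POL6326 4 h array 1 or 2, with values of -1.40 to -0.72 over all arrays left out in turn.

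Whether POL6326 and SDF-1α differed alike at all times was tested itself. For miR-125b-2* the treatment by time interaction passed (adjusted p = 6.52e-06), as did the difference between times with POL6326 (adjusted p = 6.51e-06) and with SDF-1α (adjusted p = 0.00491). It was the 1 member of 10 called in each of these tests, which called 3.88%, 13.6% and 5.68% of all probes. The POL6326 time test rests on the 4 h arrays, without which its adjusted p was 0.278, since the means at the other times were 7.94, 7.65 and 7.16. The SDF-1α time test rests on the 1 h arrays, without which its adjusted p was 0.524. The interaction passed under all 10 alternatives.

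Over the 4 times together miR-125b-2* averaged 6.94 ± 1.21 with POL6326 and 5.43 ± 0.78 with SDF-1α (SD, n = 12 each), and the fitted difference was 1.50 (SE 0.14, adjusted p = 1.53e-06). With the SDF-1α floor arrays set to their detection limits the difference was 0.81. It kept its call under all 10 alternatives, and 1 member of 10 was called where 9.82% of all probes were. The median difference was -0.09 over the 10 members and -0.03 over all probes. The mean over times joins differences of both signs, so the values at each time describe this miRNA better.

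Against control, miR-125b-2* was higher with POL6326 at 1, 2 and 8 h, and the control level is only partly known. Setting the 2 control arrays at the floor to their detection limits, the POL6326 means stood 2.30 above control at 1 h (4.92-fold), 2.00 at 2 h (4.00-fold) and 1.52 at 8 h (2.86-fold). The fitted differences, with floor values as deposited, were 3.49, 3.19 and 2.71 (adjusted p = 1.24e-07, 5.55e-07 and 7.98e-06). With the common limit of 7.42 the 2 h call was lost (0.22, adjusted p = 0.0527), and so was the 8 h call, since no 8 h value was left above the limit. At 4 h the fitted difference of 0.54 did not pass (adjusted p = 0.252). The number of members called was 1 of 10 at 1, 2 and 8 h and over the 4 times, and 0 at 4 h. Of all probes, 4.78%, 4.26%, 4.39% and 3.1% were called at 1, 2, 4 and 8 h, and 3.75% over the 4 times. At 4 h 1 member had an unadjusted limma p under 0.05.

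SDF-1α was set against the same control arrays. The fitted differences of miR-125b-2* were -0.05 at 1 h (adjusted p = 0.999), 1.39 at 2 h (adjusted p = 0.0104), 1.57 at 4 h (adjusted p = 0.00575) and 1.01 at 8 h (adjusted p = 0.0811). With the control floor arrays at their detection limits the differences shrank to 0.20 at 2 h and 0.38 at 4 h, so the size of these rises is not known. The 2 h call was lost without SDF-1α 2 h array 2 or 3 (adjusted p up to 0.0699) and the 4 h call without SDF-1α 4 h array 3 (adjusted p = 0.0509). Over the 4 times the fitted difference was 0.98 (adjusted p = 0.0263). It was -0.21 with only the control floor arrays at their limits and the 3 SDF-1α floor arrays as deposited. With the floor arrays of both at their limits, the means were 6.12 with SDF-1α and 5.64 in control. The call was lost without any 1 of the control arrays (adjusted p up to 0.108). It was kept under 7 of 10 alternatives and lost with the common limit, without the 4 h arrays and with the groups compared fitted alone. Members called were 1 of 10 over the 4 times and at 1, 2 and 4 h, and 0 at 8 h, where 1 had an unadjusted limma p under 0.05. Of all probes, 2.84% were called over the 4 times, and 3.88%, 2.58%, 1.94% and 2.2% at 1, 2, 4 and 8 h.

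The opposite arm of the same hairpin, hsa-miR-125b, is the strand best known in leukaemia. It was above the floor on 1 POL6326 array (4.42 at 4 h), 2 SDF-1α arrays (6.88 at 1 h, which was that array's detection limit, and 5.05 at 8 h) and 1 control array (4.57). No group had more than 1 array above the floor, so no level can be given for any group. The fitted POL6326 minus SDF-1α difference over the 4 times was -0.29 (SE 0.20, adjusted p = 0.347). miR-125b-1*, the star strand from the chromosome 11 gene, was not above the floor on any array.

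miR-125a-5p, which shares the miR-125b seed, was measured on 9 of 12 POL6326 arrays, 9 of 12 SDF-1α arrays and all 3 control arrays. With POL6326 it read 7.88 and 6.68 with 1 array at the floor at 1 h, 7.51 with 2 arrays at the floor at 2 h, then 4.56, 4.77 and 4.81 at 4 h, and 5.78, 6.13 and 6.27 at 8 h. With SDF-1α it read 8.20 with 2 arrays at the floor at 1 h, then 8.50, 8.34 and 7.71 at 2 h, then 7.79, 7.70 and 7.72 at 4 h, and 6.27 and 7.30 with 1 array at the floor at 8 h. The control arrays read 6.67, 7.68 and 8.13. The treated groups were apart at 2 h, where 2 POL6326 arrays were at the floor, and at 4 h, where all 6 arrays were measured, and overlapped at 1 and 8 h.

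At 4 h miR-125a-5p averaged 4.71 ± 0.14 with POL6326 and 7.74 ± 0.05 with SDF-1α, a difference of -3.02 (SE 1.03) that did not pass across all groups (adjusted p = 0.0727). The SE comes from a spread shared by all 9 groups, among which arrays of this miRNA switch between about 8 and the floor. Fitted on the 2 groups compared alone, the adjusted p was 0.000308, and it also passed with median centring (adjusted p = 0.0139), with a replicate block (adjusted p = 0.0397) and with probes often at the floor left out (adjusted p = 0.0404), with a range of 0.000308 to 0.400 over the alternatives. Without SDF-1α 1 h array 2 it passed as well (adjusted p = 0.0334). At 2 h the difference was -2.78 (adjusted p = 0.198), at 1 h 0.76 (adjusted p = 0.764), at 8 h 0.09 (adjusted p = 1.0) and over the 4 times -1.24 (SE 0.51, adjusted p = 0.152). The 2 h difference passed with the common limit (-0.73, adjusted p = 0.0226, with a range of 0.0226 to 0.373 over the alternatives). That over the 4 times passed with median centring (-1.38, adjusted p = 0.0375) and with the common limit (-0.29, adjusted p = 0.0403), with a range of 0.0375 to 0.541 over the alternatives. Against control the differences over the 4 times were -1.88 with POL6326 (adjusted p = 0.254) and -0.64 with SDF-1α (adjusted p = 0.892).

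Its partner arm miR-125a-3p was above the floor on 3 POL6326 arrays (5.48 at 1 h and 4.42 and 4.58 at 4 h), 2 SDF-1α arrays (5.11 at 4 h and 4.65 at 8 h) and 1 control array (4.50). These values lay just above each array's own detection limit. The fitted POL6326 minus SDF-1α difference over the 4 times was 0.01 (adjusted p = 0.973).

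**Figure D2:**
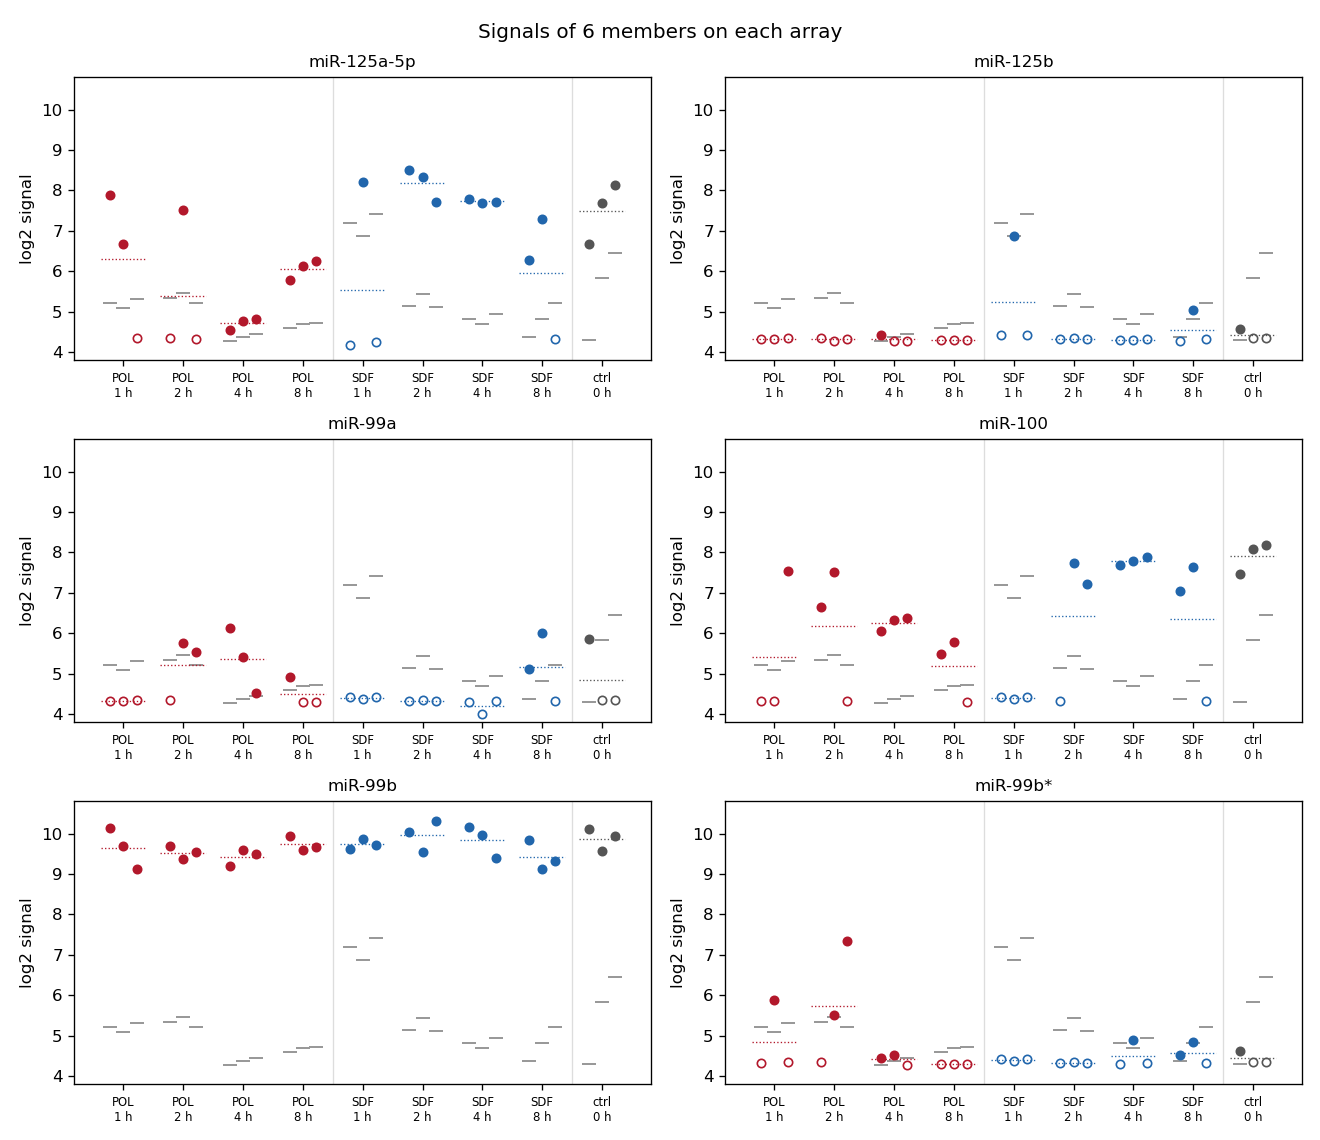
Log2 signal on each array of miR-125a-5p, miR-125b, miR-99a, miR-100, miR-99b and miR-99b*, by group, with POL6326 at left, SDF-1α in the middle and control at right. Filled points are above the floor, open points are at it, grey ticks are detection limits and dotted lines are group means. miR-99b stays between 9.13 and 10.31, whereas miR-125a-5p and miR-100 move between about 8 and the floor within groups.

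hsa-miR-99b, from the chromosome 19 cluster, was the steadiest member. It ran from 9.13 to 10.31 over the 27 arrays and was 9.59 ± 0.28 with POL6326 (lowest 9.13, median 9.60, highest 10.13), 9.74 ± 0.36 with SDF-1α (lowest 9.14, median 9.79, highest 10.31) and 9.87 ± 0.28 on the control arrays (SD, n = 12, 12 and 3). The 3 ranges overlapped over most of their length. The POL6326 minus SDF-1α difference was -0.16 (SE 0.13, adjusted p = 0.429). Against control the differences were -0.28 with POL6326 (adjusted p = 0.607) and -0.13 with SDF-1α (adjusted p = 0.892). Its star strand miR-99b* was above the floor on 5 POL6326 arrays, 3 SDF-1α arrays and 1 control array, with its highest value, 7.35, on POL6326 2 h array 3 and all others at 4.46 to 5.90. Its fitted difference at 2 h was 1.40 (SE 0.49, adjusted p = 0.148).

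hsa-miR-100, from the chromosome 11 cluster, was bright on the control arrays at 7.47, 8.10 and 8.19. With POL6326 it read 7.54 with 2 arrays at the floor at 1 h, 6.66 and 7.52 with 1 array at the floor at 2 h, then 6.06, 6.33 and 6.39 at 4 h, and 5.50 and 5.79 with 1 array at the floor at 8 h. With SDF-1α all 3 arrays were at the floor at 1 h, and it read 7.74 and 7.23 with 1 array at the floor at 2 h, then 7.70, 7.80 and 7.89 at 4 h, and 7.04 and 7.65 with 1 array at the floor at 8 h. At 4 and 8 h every POL6326 array was below every control array.

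At 1 h of SDF-1α against control, 3.88% of all probes were called, 5 higher and 25 lower with SDF-1α. The call for miR-100 was in this comparison, where it was the 1 member of 10 called. It was at least 1.69-fold lower than in control, taking the mean detection limit of 7.16 on the SDF-1α 1 h arrays against the control mean of 7.92 ± 0.39 (fitted difference -3.51, SE 0.97, adjusted p = 0.0491). Each control value lay above the highest SDF-1α 1 h limit, 7.42. The call is at the edge of the threshold: it was lost with a replicate block (adjusted p = 0.0542), with a covariate for probes above the floor (adjusted p = 0.169, with a range of 0.00249 to 0.169 over the alternatives) and on leaving out any of 17 of the 27 arrays (adjusted p up to 0.125). These were control arrays 1 and 2, SDF-1α 1 h arrays 1 and 3, SDF-1α 2 h array 3, all SDF-1α 4 h arrays, POL6326 1 h arrays 1 and 2, POL6326 2 h array 1 and all POL6326 4 h and 8 h arrays.

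In other comparisons miR-100 did not pass. At 4 h it was 6.26 ± 0.17 with POL6326 and 7.79 ± 0.10 with SDF-1α, a difference of -1.53 (SE 0.97, adjusted p = 0.372) between groups that did not overlap. Fitted on the 2 groups alone its adjusted p was 0.00372, and with 1 common detection limit of 7.42 the difference was -0.37 (adjusted p = 0.0482), with a range of 0.00372 to 0.690 over the alternatives. Over the 4 times the POL6326 minus SDF-1α difference was -0.49 (adjusted p = 0.531). Against control it was -2.16 with POL6326 (adjusted p = 0.139) and -1.67 with SDF-1α (adjusted p = 0.324). With the common limit these were -0.48 (adjusted p = 0.00630) and -0.36 (adjusted p = 0.0330).

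hsa-miR-99a differs from miR-100 by the single base U16A and lies beside let-7c on chromosome 21, in the cluster of miR-125b-2*. It was above the floor on 6 POL6326 arrays, 2 SDF-1α arrays and 1 control array (5.87). At 4 h it read 6.13, 5.42 and 4.54 with POL6326 and was not measured on any SDF-1α array, where the detection limits were 4.70 to 4.94. The fitted difference at 4 h was 1.15 (SE 0.45, adjusted p = 0.116), and it passed without POL6326 4 h array 3 (1.56, adjusted p = 0.0433). At the same 4 h, the fitted difference of miR-125b-2* of the same cluster had the other sign (-1.04). That of miR-99a did not pass, and its lowest POL6326 value, 4.54, lay under the SDF-1α limits. miR-99a was at the floor on all arrays at 1 h in both treatments, where miR-125b-2* was at its brightest with POL6326.

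**Figure D3:**
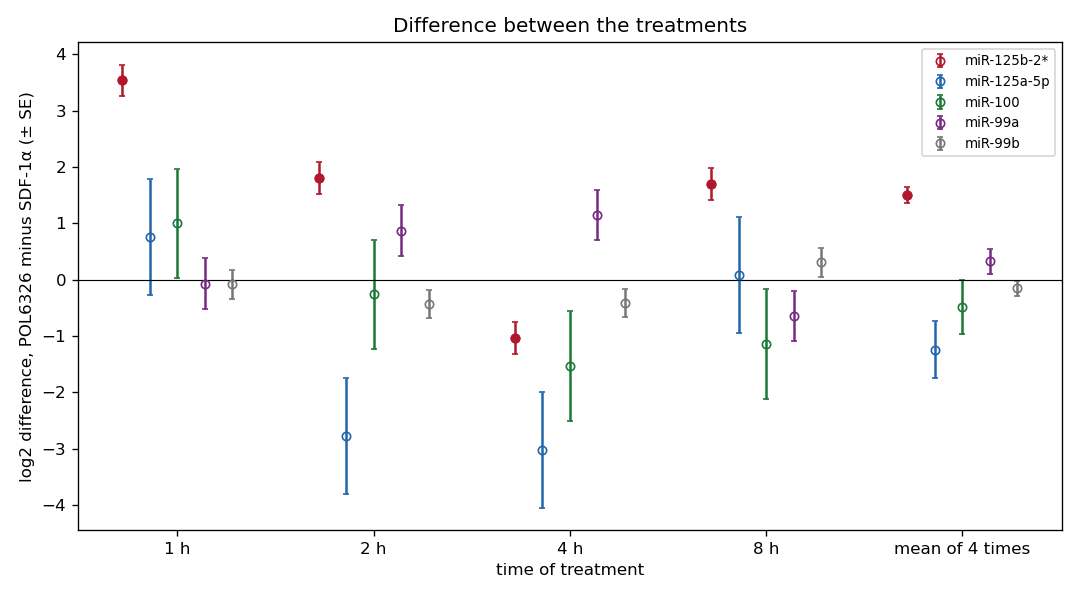
Fitted POL6326 minus SDF-1α difference in log2 signal, with its SE, for miR-125b-2*, miR-125a-5p, miR-100, miR-99a and miR-99b at 1, 2, 4 and 8 h and over the 4 times. Filled points have an adjusted p under 0.05 and open points do not. The filled points all belong to miR-125b-2*, at 3.54, 1.80, -1.04 and 1.70 by time and 1.50 over the 4 times, and values that include arrays at the floor are not bounds.

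The let-7 genes lie between the members in each cluster, and let-7 is a family known for holding back growth genes such as RAS and HMGA2. The array held 5 mature probes of let-7a, let-7c, let-7e and their star strands. Over the 4 times 1 of the 5 passed for POL6326 against SDF-1α, where 9.82% of all probes were called: let-7a, which also has gene copies outside these clusters, was 7.86 ± 0.36 with POL6326 and 6.07 ± 1.41 with SDF-1α (SD, n = 12 each, difference 1.79, adjusted p = 0.00717). let-7a was at the floor on 3 SDF-1α arrays at 1 h and 1 at 8 h. With these at their detection limits the difference over the 4 times was 1.05. Without the 1 h arrays the fitted difference was 1.22 (adjusted p = 0.125). With the covariate for probes above the floor it was 1.25 (adjusted p = 0.0878), and neither passed. At 1 h 2 of the 5 passed, against 3.49% of all probes, both measured on the 3 POL6326 arrays and at the floor with SDF-1α. For let-7a the POL6326 mean of 7.85 stood at least 1.60-fold above the mean SDF-1α limit (adjusted p = 0.0199), a call lost with the common limit (adjusted p = 0.395), with the covariate (adjusted p = 0.0582) and without SDF-1α 1 h array 2 or 3 or POL6326 1 h array 2 (adjusted p up to 0.0640). let-7e* has no fold, since its POL6326 mean of 6.76 lay under the SDF-1α limits. Its call (adjusted p = 0.0440) was lost under 3 of 8 alternatives and on leaving out any of 20 of the 27 arrays (adjusted p up to 0.160). let-7c, the partner of miR-99a and miR-125b-2*, was 8.05 ± 0.23 with POL6326, 7.35 ± 1.00 with SDF-1α and 8.40 ± 0.19 in control, and passed in no comparison. At 4 h let-7e, the partner of miR-99b and miR-125a, was 8.58 ± 0.05 with POL6326 and 7.97 ± 0.42 with SDF-1α, a difference of 0.61 (adjusted p = 0.0358, 1 of the 5 against 9.82% of all probes). The call was kept under 4 of 8 alternatives and lost with median centring (0.32, adjusted p = 0.160), the covariate (0.63, adjusted p = 0.183), the groups compared fitted alone (adjusted p = 0.154) and probes often at the floor left out (adjusted p = 0.0518). It was also lost without any of the 3 POL6326 4 h arrays or without SDF-1α 4 h array 1 or 2 (adjusted p up to 0.172). let-7a*, which comes from let-7a genes outside these clusters, was above the floor on 2 of 27 arrays.

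**Figure D4:**
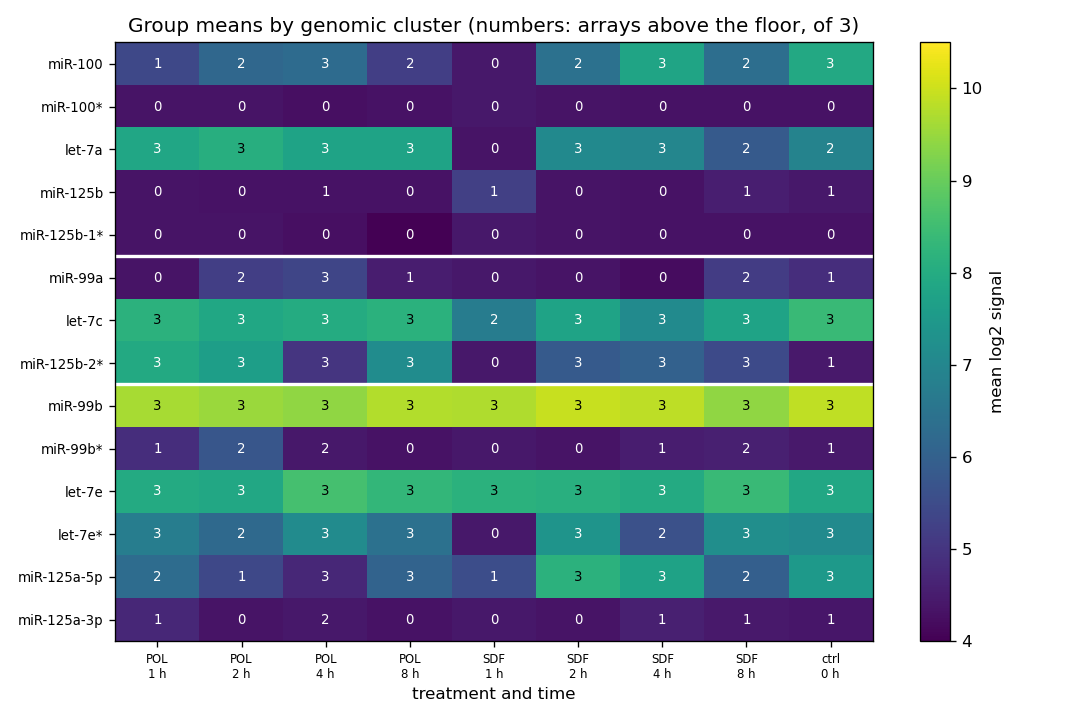
Mean log2 signal of each group for the members and their let-7 partners, ordered by cluster, with POL6326 groups at left, SDF-1α groups in the middle and control at right. The number in each cell is how many of the 3 arrays were above the floor. In the chromosome 21 rows, miR-125b-2* goes between 7.94 and 4.99 over the POL6326 groups while let-7c stays between 7.88 and 8.18, and mature miR-125b can come from chromosome 11 or 21.

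The miR-10 family is related to miR-99/100 by sequence. miR-10a, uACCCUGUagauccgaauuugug, is shown for the run of 11 bases it shares with miR-100, which starts at base 7 of miR-10a and base 6 of miR-100, so the alike strands carry different seeds. Of the 4 mature miR-10 probes, 1 passed against control over the 4 times with POL6326 and with SDF-1α, and in each case it was miR-10a, where 3.75% and 2.84% of all probes were called. It was 8.93 ± 0.51 with POL6326, 9.17 ± 0.50 with SDF-1α and 10.31 ± 0.19 in control (differences -1.37 and -1.13, adjusted p = 0.00373 and 0.0270). The SDF-1α call was lost without control array 1 or 2 (adjusted p up to 0.139) and without the 1 h arrays (adjusted p = 0.0570). At 4 h 2 of the 4 passed, against 9.82% of all probes, both lower with POL6326 than with SDF-1α: miR-10b at 7.55 ± 0.71 and 8.98 ± 0.17 (difference -1.43, adjusted p = 0.00624) and its star strand miR-10b* at 4.76 ± 0.29 and 7.67 ± 0.57 (difference -2.91, adjusted p = 0.0360). The miR-10b call was kept under 6 of 8 alternatives, and those that lost it include the covariate (-0.79, adjusted p = 0.120). That of miR-10b* was also kept under 6 of 8 alternatives, with adjusted p-values of 0.00617 to 0.423 over the 8. It was lost without any 1 of these 6 arrays (adjusted p up to 0.115).

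The probes most like each member were found by Pearson's r over the 27 arrays, among 236 mature probes above the floor on at least 18 arrays. These correlations describe arrays that share detection limits and are given with no test. miR-125b-2* was most like miR-137 (r = 0.82) and miR-674 (r = 0.78). miR-137 averaged 6.49, 6.97, 4.77 and 6.73 at 1, 2, 4 and 8 h of POL6326, and was not above the floor at 1 h of SDF-1α, so it too was low at 4 h of POL6326. At 2 h its POL6326 minus SDF-1α difference was 0.11 (adjusted p = 0.995), where that of miR-125b-2* was 1.80. miR-100 was most like miR-7-1* (r = 0.68) and miR-26a (r = 0.63). miR-125a-5p was most like miR-744* (r = 0.63) and miR-30b (r = 0.62), and miR-99b was most like miR-142-5p (r = 0.60) and miR-484 (r = 0.56).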

How the data were processed

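The authors deposited log2 signals for 774 human miRNA probes on 27 arrays. Per the labels, total RNA was reverse transcribed with a biotin-carrying primer and hybridised to a chip. The scanner software and normalization used were not given in the sources used here, so the scale of the signals beyond log2 is unknown.

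Deposited values were not altered. An array's floor was its most frequent value and its detection limit the lowest value above that (tolerance 1e-04). limma 3.58.1 in R 4.3.3 fitted 1 mean for each of 9 groups to all 774 probes (empirical Bayes prior df 0.90), with two-sided p-values adjusted by Benjamini-Hochberg and a threshold of 0.05. Folds against a group wholly at the floor used its mean detection limit. Fitted differences that include floor values depend on where the floor lies. The fit was tested on simulated data with normal noise and no floor, so that test does not cover probes at the floor.

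The text names every member, the let-7 partners, the miR-10 relatives and, for members above the floor on at least 18 arrays, the 2 most correlated probes. Members and lists were chosen with earlier results of these data known. Alternatives were median centring, quantile normalization, 1 common detection limit (7.42, 274 probes), omitting probes that were at the floor on over 50% of arrays (340 probes left), a robust prior with a trend, a replicate block, a covariate for probes above the floor, fitting the groups compared alone, and leaving out the 1 h arrays, the 4 h arrays or each array in turn. Sequences and positions are from RefSeq tables. The number of arrays limits the precision.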

Additional observations from a re-analysis of the deposited data

Results flagged for a closer look

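The difference between POL6326 and SDF-1α was not the same at 1, 2, 4 and 8 h for miR-125b-2* (treatment by time interaction, limma adjusted p = 6.52e-06). The difference was 3.54 at 1 h, where the SDF-1α arrays were at the floor, 1.80 at 2 h, -1.04 at 4 h and 1.70 at 8 h.

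The same test passed for let-7e*, the star strand of the let-7 gene beside miR-99b and miR-125a (adjusted p = 0.0476). It was 6.76, 6.22, 7.15 and 6.42 at 1, 2, 4 and 8 h of POL6326, and with SDF-1α it was at the floor on the 3 arrays at 1 h and averaged 7.37, 5.61 and 7.22 at 2, 4 and 8 h. The mean at 1 h of POL6326 lay under the SDF-1α 1 h detection limits, so no fold can be given there. The call was kept under 5 of 10 alternatives, with adjusted p-values of 0.0262 to 0.480 over the 10. It was lost with 1 common detection limit (0.480), with a covariate for probes above the floor (0.0871), with the groups compared fitted alone (0.0553) and without the 1 h arrays (0.150) or the 4 h arrays (0.0570). It was also lost on leaving out any of 19 of the 27 arrays in turn (adjusted p up to 0.0837), that is all but control array 3, SDF-1α 4 h arrays 1 and 3, SDF-1α 8 h array 1, the POL6326 2 h arrays and POL6326 4 h array 3.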

How the results depend on the processing

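For every comparison the count of members called was set against its alternatives, and the counts that moved are these. With median centring, 3 members were called for POL6326 against SDF-1α over the 4 times, 4 at 4 h and 3 at 8 h, 4 for POL6326 against control at 8 h, 5 for the change over time with POL6326 and 2 for the interaction. Array medians were 4.53 to 4.77 on the POL6326 4 and 8 h arrays and 4.33 to 4.35 on those at 1 and 2 h, so centring also shifts probes at the floor: miR-100*, never above it, was called at -0.17. Over all probes, centring called 44 higher and 266 lower for POL6326 against SDF-1α, in place of 42 and 34. At 4 h it called 23 higher and 295 lower, in place of 29 and 47, and at 8 h 8 and 200, in place of 6 and 2. With quantile normalization, 0 members were called at 4 h of POL6326 against SDF-1α, where 62 of 774 probes were called. With 1 common detection limit, 4 members could be tested: 2 were called for POL6326 against SDF-1α and against control over the 4 times, 2 for POL6326 against control at 1 h and 1 at 4 h, and 0 for POL6326 against SDF-1α at 8 h, SDF-1α against control at 2 and 4 h and the change over time with SDF-1α. Of the 274 probes tested with that limit, 80 were called for POL6326 against SDF-1α over the 4 times and 36 at 2 h. Against control over the 4 times, 28 were called with POL6326 and 38 with SDF-1α. Most values of miR-125b-2* lie under that limit, and its 2 h call was lost (adjusted p = 0.0510 against SDF-1α, 0.0527 against control). Its 4 h call against SDF-1α, both 8 h calls and the SDF-1α call against control over the 4 times were lost as well. At 2 h against SDF-1α the 1 member called was miR-125a-5p, and for SDF-1α against control over the 4 times it was miR-100. With probes often at the floor left out, 2 members were called at 4 h of POL6326 against SDF-1α (miR-125b-2* and miR-125a-5p). Of all 340 probes left, 64 were called there. With a covariate for probes above the floor, 0 were called there and for SDF-1α against control at 1 h, and over all probes 39 were called for POL6326 against SDF-1α over the 4 times (76 without it), 9 at 4 h (76 without it) and 71 for POL6326 against control over the 4 times (29 without it). Fitted on the groups compared alone, the counts were 2 for POL6326 against SDF-1α at 4 h (miR-125a-5p and miR-100, not miR-125b-2*) and 0 at 8 h, 0 for SDF-1α against control over the 4 times, at 2 h and at 4 h, 2 for the change over time with POL6326 and 0 with SDF-1α. Of all 774 probes, this fit called 69 for POL6326 against SDF-1α at 4 h and 0 at 8 h. It called 6 for SDF-1α against control over the 4 times. Without the 4 h arrays, 0 members were called for SDF-1α against control over the 4 times and for the change over time with POL6326. Without the 1 h arrays, 0 were called for the change over time with SDF-1α.

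Leaving out each array in turn gave 1 to 2 members for POL6326 against SDF-1α at 2 h and 0 to 2 at 4 h, 1 to 2 for POL6326 against control at 2 h and 0 to 1 at 4 h, 0 to 3 for SDF-1α against control at 1 h and 0 to 1 at 2 h, 4 h, 8 h and over the 4 times, 1 to 2 for the change over time with POL6326, 1 to 3 with SDF-1α, and 1 to 2 for the interaction. Deviations from group means were correlated between arrays of different groups. With the same replicate number r ran from -0.28 to 0.72 (median 0.01, 108 pairs), and with other numbers from -0.75 to 0.45 (median -0.01, 216 pairs). The medians were alike and show no general pairing by number, but they cannot settle whether some of the arrays are paired. With the replicate block, 2 members were called at 4 h of POL6326 against SDF-1α (miR-125a-5p joined), 0 for SDF-1α against control at 1 h and 1 at 8 h (miR-125b-2*, adjusted p = 0.0384), and no other count moved. With the block, 91 of all 774 probes were called at 4 h of POL6326 against SDF-1α. Values of single miRNAs were also tallied, with only the lowest and the highest value of each result over the arrays left out in turn. Of these values, 555 kept their side of the threshold with no turn of sign. Another 89 lost their call, 16 gained one and 18 turned sign without a call, while no called value in the tally changed sign. Calls lost on leaving out other arrays are not in these counts. The cause of these changes was not tested, except as stated. Detection limits that differ between groups bound what can be said of all members but miR-99b.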
